A study of Mus musculus with 18 samples.

Results

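The cells described here are those of the yolk sac endoderm in single mouse embryos collected at E8.5 (embryonic day 8.5), the extraembryonic epithelium that carries the markers Apoa1, Apob, Afp, Ttr and Rbp4. A cell barcode was taken as a yolk sac endoderm cell where these 5 transcripts together made up at least 2% of its UMIs (unique molecular identifiers, each 1 counted transcript) and the globins Hbb-y, Hbb-bh1, Hba-x, Hba-a1 and Hba-a2 together under 5%, among barcodes with at least 1500 UMIs. The rule found 12352 such cells among 128881 barcodes, of which 4298 came from WT, 774 from Dnmt1 KO, 4129 from Dnmt3a KO and 3151 from Dnmt3b KO embryos. The cells were thus chosen by their measured levels of these 10 transcripts, which are described without a test.

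The visceral endoderm of the yolk sac surrounds the embryo and feeds it before the placenta and liver are functional. It takes up maternal protein through receptors such as cubilin and its partner amnionless, degrades it in lysosomes, and secretes apolipoproteins and serum proteins that the liver will make later. DNMT1 copies DNA methylation onto newly made DNA, whereas DNMT3A and DNMT3B place new methylation. Extraembryonic tissues are known to carry less DNA methylation than the embryo proper, and imprinted genes, which are expressed from the maternal or the paternal copy only, are prominent in them. The comparison asked how the transcripts of this epithelium stand in embryos that lack 1 of these 3 enzymes.

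Libraries were made with the 10x Genomics 3' chemistry, 1 per embryo, on the background 129S4/SvJae, and comprised 7 Wildtype (WT), 3 Dnmt1 null, 4 Dnmt3a null and 4 Dnmt3b null embryos, the last 3 groups written as KO. All embryos came from matings of heterozygous parents and were genotyped by PCR on the ecto-placental cone. The deletions were constitutive, so that in KO embryos the cells around the endoderm lacked the enzyme too. Dnmt3b KO 1 and Dnmt3b KO 2 shared 629 cell barcodes among their yolk sac endoderm cells, 89.1% of those in Dnmt3b KO 1 and 72.3% of those in Dnmt3b KO 2, and the marker percentage of the shared barcodes had a Pearson correlation of 0.992 across cells. Every other pair had at most 2 in common. The counts of both were therefore summed into 1 unit, Dnmt3b KO 1+2, so that 17 units remained, with n = 7, 3, 4 and 3. Total numbers of cells and barcodes still include both libraries.

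Summed UMIs of the yolk sac endoderm cells ran from 3433519 in Dnmt1 KO 3 to 45809396 in WT 3, and the median per cell from 3379.5 (WT 2) and 4974 (Dnmt3a KO 2) to 89604 (Dnmt1 KO 1). By their Y-linked transcripts every Dnmt1 KO and Dnmt3a KO embryo and 2 of the 3 Dnmt3b KO units were male, but only 1 of 7 WT embryos (WT 2), so that sex and genotype were largely confounded. A combined human and mouse reference had served for WT 1, for Dnmt3a KO 1 and 13 and for Dnmt3b KO 11. Dnmt3a KO 2 stood apart by its number of barcodes, 15427, and by the median marker percentage of its other non-erythroid cells, 0.166% against 0 to 0.0210% in the other 17 libraries.

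The chosen cells carried the transcripts of yolk sac endoderm that the rule did not use. In WT embryos a list of 17 further yolk sac endoderm genes summed to a median of 16749 CPM (counts scaled to 1000000 UMIs of the same cells) against 351 CPM in the other non-erythroid cells. Spp2, a secreted phosphoprotein, had 591 ± 211 CPM in yolk sac endoderm cells against 5.8 CPM in other cells (mean ± SD, n = 7). The glucose transporter Slc2a2 stood at 353 ± 22.7 CPM in yolk sac endoderm cells against 4.17 CPM in other cells. Amn, which encodes amnionless, reached 981 ± 103 CPM in yolk sac endoderm cells against 14.7 CPM in other cells. Cubn, which encodes cubilin, reached 616 ± 67.6 CPM in yolk sac endoderm cells against 10.8 CPM in other cells, and the calcium-binding S100g 2843 ± 944 CPM in yolk sac endoderm cells against 43.4 CPM in other cells. Of the lists for neighbouring cell types, endothelium summed to a median of 3.01 CPM (102 in other cells), extraembryonic mesoderm to 37.1 (355), gut endoderm to 85.8 (179), neural to 92.9 (356) and trophoblast to 99.1 (201). The parietal endoderm list was the exception, with 810 CPM against 515 in other cells. Sparc, Col4a1 and Col4a2 carried this sum. With all libraries pooled they had 447, 245 and 102 CPM in cells with markers at 2% to 3% of UMIs. Below 0.5% they had 177, 89.7 and 40 CPM. Fst (2.75 against 78.5 CPM), Snai1, Nid1, Plat, Stra6 and Thbd were instead lower at 2% to 3% than below 0.5%, and Lama1 and Lamb1 differed less. Within the gut endoderm list Cdh1, an epithelial cadherin, went the other way, with 61.9 ± 3.78 CPM in yolk sac endoderm cells against 13.2 CPM in other cells, as within the trophoblast list did Esx1 (44.6 against 1.49 CPM), Eomes (2.0 against 0.375 CPM) and Plac1 (23.5 against 17.4 CPM).

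The threshold cut through a continuum. The list of further yolk sac endoderm genes, counted over all WT cells of a range of marker percentage, rose from 215 CPM below 0.5% to 9431 CPM between 1% and 2%, 13156 CPM between 2% and 3% and 19621 CPM at 4% or more. Just outside the threshold, between 1.5% and 2%, lay 11 to 145 cells per WT library, and just inside, between 2% and 2.5%, lay 26 to 177. In Dnmt1 KO the cells were nearer to the threshold: their median marker percentage was 2.48 ± 0.09 against 3.30 ± 0.39 in WT, 2.94 ± 0.37 in Dnmt3a KO and 2.81 ± 0.09 in Dnmt3b KO. For every 100 yolk sac endoderm cells, cells between 1% and 2% numbered 18.6 for WT, and 84.8, 81 and 37.7 for Dnmt1, Dnmt3a and Dnmt3b KO. In Dnmt1 KO these 656 cells had a median of 33522 UMIs and the further yolk sac endoderm genes summed to 11271 CPM in them. In Dnmt3a KO, 2800 of the 3343 cells between 1% and 2% came from Dnmt3a KO 2, and their pooled median was 2753 UMIs.

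Within the chosen cells the 5 markers of the rule differed in level, which is given as a description only. Ttr, the thyroid hormone carrier, had 11273 ± 1389 CPM in WT, 8893 ± 334 CPM in Dnmt1 KO, 9575 ± 1155 CPM in Dnmt3a KO and 9164 ± 908 CPM in Dnmt3b KO. Rbp4, the retinol carrier, had 10476 ± 1188 CPM in WT, 8067 ± 618 CPM in Dnmt1 KO, 10257 ± 1628 CPM in Dnmt3a KO and 9665 ± 105 CPM in Dnmt3b KO. Apoa1, the main protein of high-density lipoprotein, had 7633 ± 679.7 CPM in WT, 4639 ± 164 CPM in Dnmt1 KO, 7269 ± 621 CPM in Dnmt3a KO and 7655 ± 476 CPM in Dnmt3b KO. Its range in Dnmt1 KO lay below that in WT. Afp, the fetal serum protein, had 3027 ± 705 CPM in WT, 2251 ± 300.0 CPM in Dnmt1 KO, 2260.3 ± 283 CPM in Dnmt3a KO and 1939 ± 197 CPM in Dnmt3b KO, and Apob, the protein of low-density lipoprotein, 1559 ± 423 CPM in WT, 1531 ± 153 CPM in Dnmt1 KO, 988 ± 236 CPM in Dnmt3a KO and 1123 ± 335 CPM in Dnmt3b KO. Scrublet, a doublet caller, marked 0% to 11.4% of the yolk sac endoderm cells per library, which were removed only in an alternative.

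**Figure D1:**
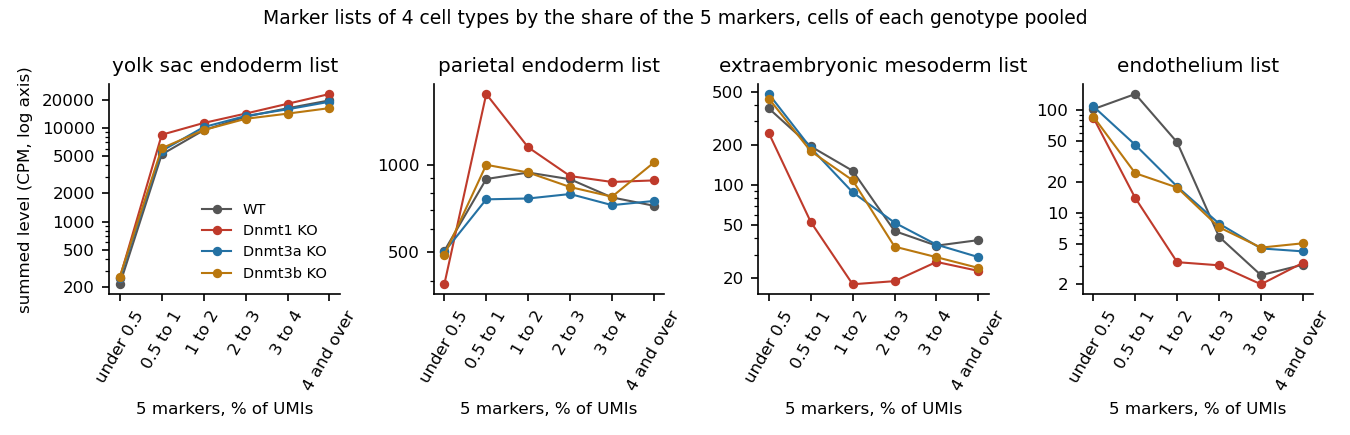
The x axis gives the range of marker percentage (the 5 rule transcripts as a share of a cell's UMIs) and the y axis the CPM of marker lists summed over all cells of that range (log axis), by genotype. The yolk sac endoderm list climbs with the marker percentage in each genotype, from 215 CPM below 0.5% to 19621 CPM at 4% or more in WT, with no gap at 2%.

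No difference between genotypes in the share of yolk sac endoderm cells passed the test, but none could have. With so few KO units, an exact permutation test cannot bring the adjusted p below the limit set further on for called genes. The test therefore does not decide whether the shares differed, and the values are given as a description. WT embryos had 6.64% to 17.9% of barcodes in this class (median 10.1%, mean 10.96 ± 3.64 SD, n = 7). The 3 Dnmt1 KO embryos had 18.5% (95% Clopper-Pearson interval 16.6% to 20.5%), 10.7% and 2.42% (1.95% to 2.97%), and so covered more than the whole WT range. In Dnmt3a KO 1, 2, 13 and 14 the share was 10.9%, 12.5%, 6.19% and 9.42%, and in Dnmt3b KO 1+2, 11 and 12 it was 7.05%, 10.0% and 7.83%. On the log2 scale the group means differed from WT by -0.43, -0.15 and -0.35, with p = 0.517, 0.624 and 0.217 in exact two-sided permutation tests over embryos and 0.624 for each after adjustment over the 3. With Dnmt3b KO 1+2 alone the difference in Dnmt3b KO was -0.57. These intervals cover counting error only. With a threshold of 1% in place of 2% the shares averaged 12.8% in WT, 17.9% in Dnmt1 KO, 11.3% in Dnmt3b KO and 15.9% in Dnmt3a KO (30.7% in Dnmt3a KO 2), so the sign of the difference turned for Dnmt1 KO (0.30) and Dnmt3a KO (0.17).

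**Figure D2:**
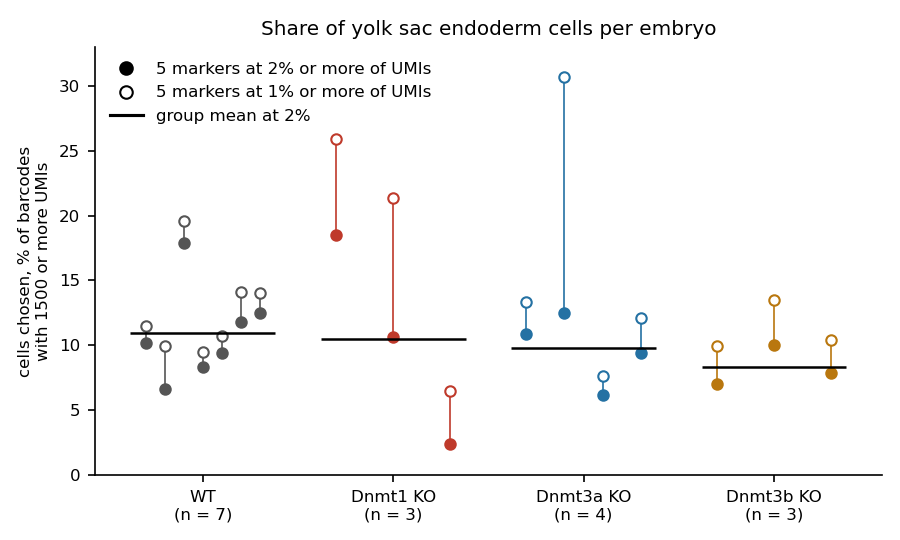
Each point is 1 embryo (Dnmt3b KO 1+2 is 1 point) and gives the percentage of its barcodes that are yolk sac endoderm cells, on the y axis, with a filled point at the rule's threshold of 2%, an open point at 1% joined to it by a line, and a bar for the group mean at 2%. At 2% the 3 Dnmt1 KO embryos range from 2.42% to 18.5%, around the 7 WT embryos at 6.64% to 17.9%.

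Gene expression was compared over the summed counts of each unit's yolk sac endoderm cells. A log2 fold change (KO minus WT) is given with its standard error (±), and the adjusted p is that of the quasi-likelihood test of edgeR with Benjamini-Hochberg adjustment over 13656 genes. Called genes had an adjusted p below 0.01 and a log2 fold change of 1 or more, up or down. In Dnmt1 KO, 490 genes (3.59% of those tested) were called higher and 314 (2.3%) lower. In Dnmt3a KO, 77 (0.564%) were higher and 19 (0.139%) lower, and in Dnmt3b KO 172 (1.26%) were higher and 24 (0.176%) lower. The median log2 fold change over all genes lay within 0.01 of 0 in each comparison. The 3 comparisons share the WT embryos. A lack of overlap between KO and WT units was common among called genes and adds little to a call. It held for 447 of 490 higher and 261 of 314 lower genes in Dnmt1 KO. In Dnmt3a KO it held for 71 of 77 higher and 16 of 19 lower genes, and in Dnmt3b KO for 154 of 172 and 20 of 24. With sex as a covariate Dnmt1 KO had 489 calls and Dnmt3a KO 59, of which 396 and 37 were also called without it. Calls numbered 456 in Dnmt1 KO without Dnmt1 KO 1, 55 in Dnmt3a KO without Dnmt3a KO 13, 103 in Dnmt3b KO without Dnmt3b KO 12 and 40 without Dnmt3b KO 11 and 12, which leaves 1 unit, assumed to vary like the other groups.

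**Figure D3:**
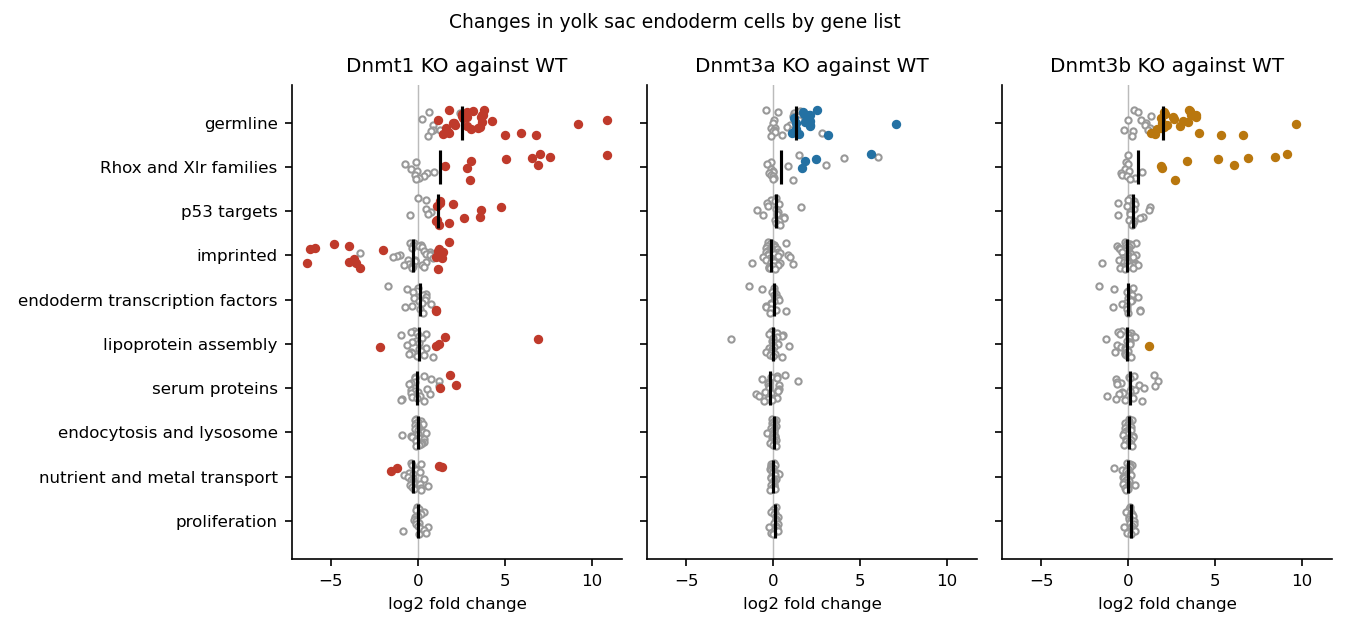
Each point is a gene of a list and the x axis gives its log2 fold change (KO minus WT) in yolk sac endoderm cells, with 1 panel per KO group, filled points for called genes and a bar at the list's median. The germline list lies to the right in all 3 panels (medians 2.55, 1.31 and 2.0), whereas filled points of the imprinted list appear in the Dnmt1 KO panel and not in the other 2.

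The targeted genes were read first, as a check of the labels. Dnmt1 stood at 39.2 to 51 CPM in WT (median 43.1) and at 8.03, 8.19 and 5.53 CPM in Dnmt1 KO 1, 2 and 3 (-2.48 ± 0.12, adjusted p = 1.5e-11). Dnmt3a had 26.6 to 42.4 CPM in WT (median 35.8) and 7.29, 6.97, 4.93 and 6.32 CPM in Dnmt3a KO 1, 2, 13 and 14 (-2.48 ± 0.28, adjusted p = 2.8e-05). Both genes were lower in every embryo of their own KO group than in every WT embryo. Dnmt3b was not lower in Dnmt3b KO, with 37.6 to 73.7 CPM in WT (median 58.2) and 87.8, 79.8 and 70.9 CPM in Dnmt3b KO 1+2, 11 and 12 (0.48 ± 0.14, adjusted p = 0.055). Reads of this assay lie near the 3' end of the transcript, so a deletion elsewhere in the gene would leave them, and Dnmt3b checks nothing here. The library labelled Dnmt3b KO 12 also had little Dnmt3a (8.02 CPM), as to a lesser degree had the one labelled Dnmt3b KO 11 (20.1 CPM), whereas Dnmt3b KO 1+2 had 38.1 CPM. Counts of calls in Dnmt3b KO are therefore given with and without these 2. Of the 19 tested genes of the methylation machinery, Mbd2, a reader of methylated DNA, also fell in Dnmt1 KO, from 23.9 to 52.8 CPM in WT to 18.9, 14.6 and 21.8 CPM (-1.22 ± 0.17, adjusted p = 3.5e-05).

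Imprinted genes changed in both directions in Dnmt1 KO. Of 45 tested, 7 were called higher and 10 lower in Dnmt1 KO, with a median of -0.26 over the list against -0.01 over all genes. Of all genes tested, 3.59% were called higher and 2.3% lower in Dnmt1 KO. Phlda2, which limits growth of the placenta, had 970.5 to 1141 CPM in WT (median 1013) and 69.3, 82.5 and 81.3 CPM in Dnmt1 KO (-3.71 ± 0.14, adjusted p = 5.7e-13). Cdkn1c, an inhibitor of cyclin-dependent kinases, had 336 to 514 CPM in WT (median 403) and 10.2, 10.3 and 27.7 CPM (-4.83 ± 0.35, adjusted p = 6.8e-09). Neither gene overlapped between the 2 groups, as was the case for most called genes. Slc22a18, a transporter gene, fell from 19.9 to 37.3 CPM in WT (median 25.4) to 1.94, 1.46 and 1.17 CPM (-3.94 ± 0.24, adjusted p = 4.1e-10). These 3 genes lie close together on chromosome 7, Cdkn1c at chr7:143458339-143461050, Slc22a18 at chr7:143473736-143499334 and Phlda2 at chr7:143501545-143503150 (mm10).

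The imprinted genes Grb10, Igf2, Igf2r and Dlk1 also fell. Grb10, an adaptor that restrains insulin and growth factor signalling, had 26.4 to 44.1 CPM in WT (median 31.1) and 0.317, 0.424 and 2.33 CPM in Dnmt1 KO (-5.95 ± 0.41, adjusted p = 4.5e-09). Igf2, the fetal growth factor, was low already in WT at 5.28 to 9.05 CPM and had 0.0635, 0.141 and 0 CPM in Dnmt1 KO (-6.18 ± 0.44, adjusted p = 6.8e-09). Igf2r, the receptor that clears IGF2, fell from 66.1 to 109 CPM in WT (median 86.4) to 28, 16.1 and 18.9 CPM (-2.01 ± 0.18, adjusted p = 1.0e-07). Dlk1, a transmembrane growth regulator, fell from 94.8 to 305 CPM in WT (median 267) to 16.3, 16.4 and 11.4 CPM (-3.98 ± 0.38, adjusted p = 2.8e-07). Each of these 4 genes was lower in all 3 Dnmt1 KO embryos than in any WT embryo, as were most genes called lower.

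The noncoding RNA H19, at the locus of Igf2, rose from 881 to 1013 CPM in WT (median 950.0) to 2135, 1965 and 2149 CPM in Dnmt1 KO (1.18 ± 0.08, adjusted p = 1.6e-09). Meg3, the noncoding RNA of the Dlk1 locus, had 539 to 1074 CPM in WT (median 792) and 1219, 1192 and 1391 CPM (0.75 ± 0.17, adjusted p = 0.003), below the fold required for a call. Airn and Kcnq1ot1, noncoding RNAs known to silence the Igf2r and the Cdkn1c clusters, were outside the rule for named genes and were picked after their values were seen. Airn rose from 5.96 to 9.21 CPM in WT to 27, 20.9 and 30 CPM (1.79 ± 0.15, adjusted p = 4.2e-08), and Kcnq1ot1 from 85.4 to 167 CPM to 348, 309.6 and 392.0 CPM (1.42 ± 0.19, adjusted p = 3.0e-05). The counts do not separate the parental alleles. No imprinted gene was called in Dnmt3a KO or Dnmt3b KO by edgeR, with 10 and 8 of 45 at an unadjusted p under 0.05, and DESeq2 called 0 in both. Over all 13656 genes 2140 and 2329 were at such a p, and few were called (0.564% higher and 0.139% lower in Dnmt3a KO, 1.26% and 0.176% in Dnmt3b KO), so a count of 0 in 45 is near the background. H19 had 1004, 1270.0, 942 and 1191 CPM in Dnmt3a KO (0.21 ± 0.07, adjusted p = 0.15) and 998, 858 and 1025 CPM in Dnmt3b KO (-0.01 ± 0.08, adjusted p = 0.99), and its log2 fold change in Dnmt3b KO changed sign under several alternatives.

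**Figure D4:**
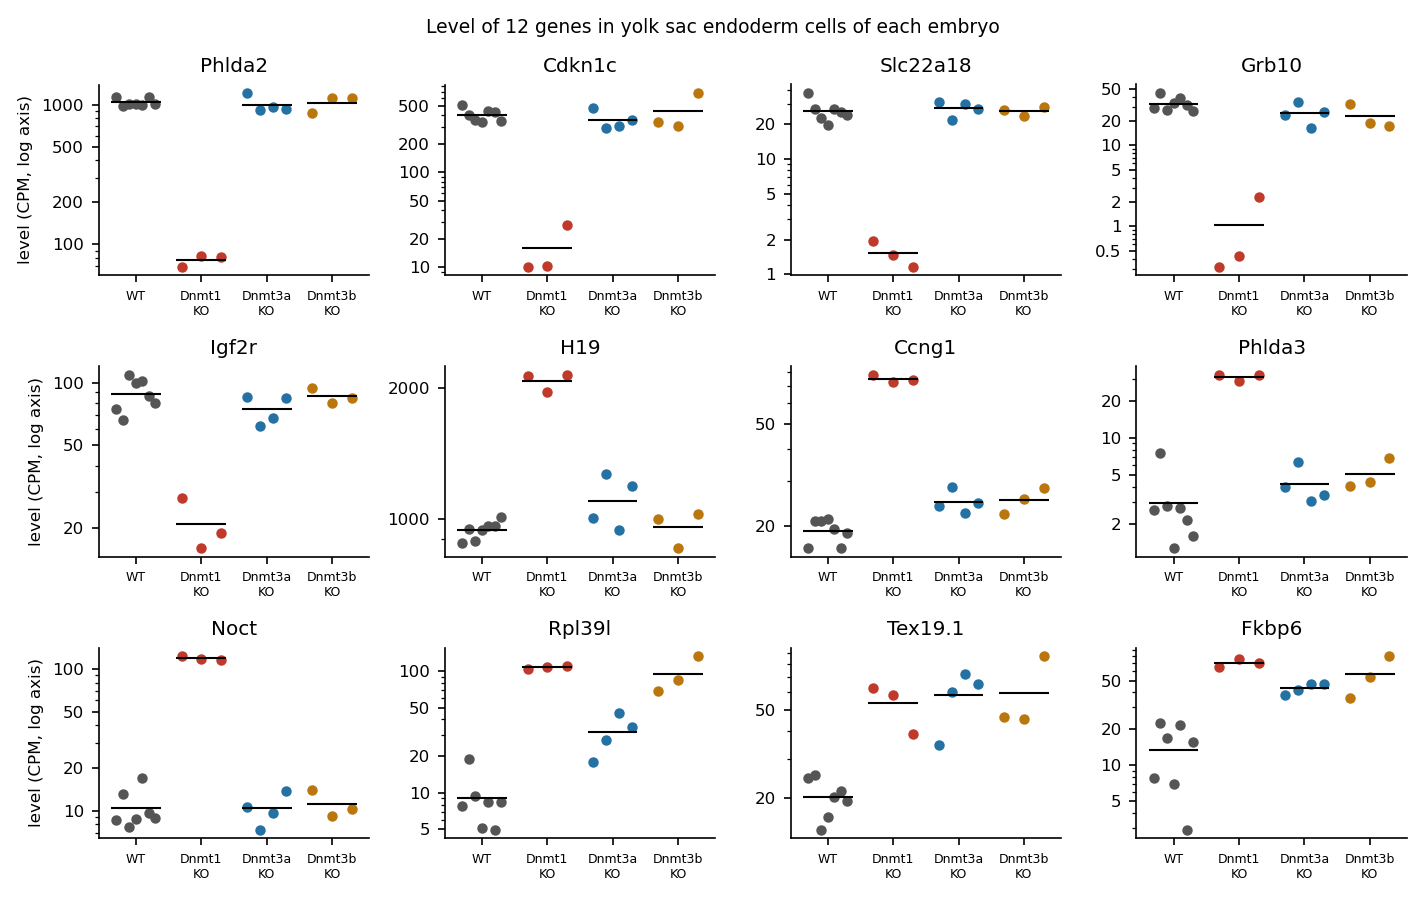
Each panel is 1 gene, each point the CPM of 1 unit's yolk sac endoderm cells (log axis), each column a genotype and each bar the group mean. Phlda2 lies at 69.3 to 82.5 CPM in the 3 Dnmt1 KO embryos and at 970.5 to 1141 CPM in the 7 WT embryos, while Rpl39l lies above the WT range in all 3 Dnmt1 KO and all 3 Dnmt3b KO units.

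Targets of p53, the transcription factor that answers DNA damage and other stress, rose in Dnmt1 KO: 12 of 18 tested were called higher and none lower, with a list median of 1.16 (3.59% and 2.3% of all genes were called higher and lower). Ccng1, a cyclin induced by p53, stood at 16.3 to 21.2 CPM in WT (median 19.4) and at 77.8, 72.5 and 74.3 CPM in Dnmt1 KO (2.01 ± 0.10, adjusted p = 1.5e-11). Trp53inp1, which promotes cell cycle arrest and death, had 8.63 to 12.2 CPM in WT (median 10.1) and 36.8, 30.4 and 41.1 CPM (1.81 ± 0.13, adjusted p = 1.0e-08). Phlda3, an inhibitor of AKT signalling, rose from 1.28 to 7.51 CPM in WT (median 2.62) to 32.4, 28.8 and 32.3 CPM (3.56 ± 0.31, adjusted p = 8.2e-08), and Eda2r, a receptor of the tumour necrosis factor family, from 0 to 0.206 CPM to 3.08, 1.18 and 1.46 CPM (4.79 ± 0.48, adjusted p = 5.9e-07). The groups did not overlap for these 4 genes, as for most called genes. The cell cycle inhibitor Cdkn1a, outside the rule for named genes, had 25.6 to 37 CPM in WT (median 32.8) and 68.4, 63.3 and 73.1 CPM (1.12 ± 0.19, adjusted p = 2.3e-04). In Dnmt3a KO and Dnmt3b KO edgeR and DESeq2 called 0 of the 18, and 7 and 6 had an unadjusted p under 0.05. With sex as a covariate 5 of the 18 were called in Dnmt1 KO. None of the 20 proliferation genes tested was called by edgeR or DESeq2 in Dnmt1 KO. An unadjusted p under 0.05 was found for 7 of them, against 5240 of all 13656 genes.

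Genes of the germline, which are active in oocytes, spermatogenic cells or their precursors and are known to be kept silent elsewhere by promoter methylation, rose in all 3 KO groups. Their promoters hold many CG pairs, the sites of methylation. In the RefSeq promoters of assembly GRCm38.p6 (300 bases, from 250 before to 50 after the start of the gene), 40 of the 45 genes of the list had an entry, with a median of 17.5 CG pairs. The median was 7 over all 27025 promoters, and 95.0% of the list against 43.9% of all promoters had 10 or more. The promoters of Rpl39l, Tex19.1 and Fkbp6, germline genes with high counts that were called in more than one KO group, are printed below in the direction of transcription with every CG in capitals. They were picked after their values were seen.
Rpl39l, chr16:10169978-10170277, plus strand, 17 CG: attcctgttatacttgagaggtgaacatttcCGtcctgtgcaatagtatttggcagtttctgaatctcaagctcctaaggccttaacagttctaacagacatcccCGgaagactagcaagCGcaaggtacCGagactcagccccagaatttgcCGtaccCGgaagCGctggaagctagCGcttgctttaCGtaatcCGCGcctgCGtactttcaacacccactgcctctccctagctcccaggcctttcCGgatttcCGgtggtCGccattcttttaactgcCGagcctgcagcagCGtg
Tex19.1, chr11:121145893-121146192, plus strand, 16 CG: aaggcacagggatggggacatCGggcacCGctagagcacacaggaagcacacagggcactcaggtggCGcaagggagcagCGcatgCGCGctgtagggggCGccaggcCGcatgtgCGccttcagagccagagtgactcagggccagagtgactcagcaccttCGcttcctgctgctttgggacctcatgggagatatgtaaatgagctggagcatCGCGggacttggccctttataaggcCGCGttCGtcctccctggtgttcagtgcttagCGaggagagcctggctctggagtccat
Fkbp6, chr5:135349995-135350294, minus strand, 21 CG: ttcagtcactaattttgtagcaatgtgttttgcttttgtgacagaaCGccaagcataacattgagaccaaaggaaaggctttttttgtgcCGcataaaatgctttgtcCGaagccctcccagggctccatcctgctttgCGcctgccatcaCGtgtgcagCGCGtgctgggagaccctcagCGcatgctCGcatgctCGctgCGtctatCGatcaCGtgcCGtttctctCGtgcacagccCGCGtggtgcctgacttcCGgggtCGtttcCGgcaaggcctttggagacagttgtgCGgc
The share of all promoters with at least as many CG pairs was 31.9% for Rpl39l, 33.5% for Tex19.1 and 25% for Fkbp6. Methylation itself was not measured in these files.

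Of 38 germline genes tested, Dnmt1 KO had 30 called higher, Dnmt3a KO 17 and Dnmt3b KO 24, and no group had any called lower. Over all genes 3.59%, 0.564% and 1.26% were called higher. This list, like the other lists, was chosen with earlier results of these data known, so these counts are not independent evidence. The list's median log2 fold changes were 2.55, 1.31 and 2.0. The list's summed level was 72.0 to 133 CPM in WT (93.5 ± 21.4, n = 7). Dnmt1 KO embryos had 497, 487 and 475 CPM, Dnmt3a KO embryos 170, 241, 280 and 264 CPM, and Dnmt3b KO units 286, 346 and 574 CPM. Every KO unit was above every WT embryo. Rpl39l, a copy of a ribosomal protein gene used in the testis, had 4.98 to 18.8 CPM in WT (median 8.4). It reached 104, 108 and 111 CPM in Dnmt1 KO (3.68 ± 0.30, adjusted p = 3.1e-08), 17.9, 27.3, 45.3 and 34.6 CPM in Dnmt3a KO (1.85 ± 0.28, adjusted p = 7.2e-04) and 67.9, 84.3 and 132 CPM in Dnmt3b KO (3.43 ± 0.29, adjusted p = 9.8e-07). Of the Rpl39l values, only that of Dnmt3a KO 1 (17.9 CPM) lay inside the WT range.

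Some germline genes were readily detected in WT yolk sac endoderm. Tex19.1, which restrains retrotransposons in germ cells and placenta, had 14.5 to 25.4 CPM in WT (median 20.2) there and a mean of 1.52 CPM in the other WT cells. In Dnmt3a KO it had 34.6, 60.3, 72.7 and 65.4 CPM (1.51 ± 0.20, adjusted p = 2.4e-04) and in Dnmt3b KO 46.2, 45.3 and 87 CPM (1.52 ± 0.22, adjusted p = 2.3e-04), against 62.9, 58.1 and 39 CPM in Dnmt1 KO (1.47 ± 0.22, adjusted p = 9.6e-05). Fkbp6, a factor of the piRNA pathway that silences transposons, had 2.92 to 22.2 CPM in WT (median 15.6) and rose to 38, 42.2, 46.8 and 47 CPM in Dnmt3a KO (1.77 ± 0.34, adjusted p = 0.0053) and to 35.9, 53.4 and 79.8 CPM in Dnmt3b KO (2.13 ± 0.36, adjusted p = 0.0011). The RNA helicase gene Ddx4 had 2.97 to 9.16 CPM in WT (median 4.95), 12, 20.6, 16.7 and 18.6 CPM in Dnmt3a KO (1.73 ± 0.23, adjusted p = 1.9e-04) and 16.4, 16 and 32.2 CPM in Dnmt3b KO (2.05 ± 0.24, adjusted p = 2.0e-05). Stk31, a kinase gene of spermatogenic cells, had 1.03 to 3.42 CPM in WT (median 1.97), 7.76, 7.26, 11 and 9.76 CPM in Dnmt3a KO (2.14 ± 0.19, adjusted p = 6.2e-06) and 7.07, 9.56 and 12.4 CPM in Dnmt3b KO (2.23 ± 0.20, adjusted p = 1.3e-06). For these 4 genes every Dnmt3a KO and Dnmt3b KO unit was above the WT range, as for most genes called higher in these groups. Slc25a31, a mitochondrial nucleotide carrier of the testis, rose in Dnmt3a KO from 3.25 to 6.19 CPM to 9.71, 11.2, 12.8 and 11.7 CPM (1.30 ± 0.17, adjusted p = 2.3e-04).

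Other germline genes were close to silent in WT and reached higher levels in Dnmt1 KO or Dnmt3b KO. Tuba3a, a testis alpha-tubulin, had 0.0579 to 0.825 CPM in WT (median 0.327), 31.8, 24 and 41.6 CPM in Dnmt1 KO (6.78 ± 0.44, adjusted p = 1.5e-09) and 4.53, 14 and 18.2 CPM in Dnmt3b KO (5.33 ± 0.44, adjusted p = 9.8e-07). Gpat2, a mitochondrial acyltransferase of germ cells, had 0.373 to 1.44 CPM in WT, 9.49, 9.79 and 9.9 CPM in Dnmt1 KO (3.75 ± 0.30, adjusted p = 2.6e-08) and 6.81, 11 and 15.8 CPM in Dnmt3b KO (3.88 ± 0.29, adjusted p = 2.5e-07). Rpl10l, another testis copy of a ribosomal protein gene, rose in Dnmt1 KO from 0.116 to 0.662 CPM to 6.32, 5.84 and 5.24 CPM (4.24 ± 0.31, adjusted p = 6.8e-09), and the testis cytochrome c gene Cyct from 0.413 to 2.87 CPM to 24, 23.7 and 18.4 CPM (4.49 ± 0.36, adjusted p = 3.1e-08). Rpl39l, Rpl10l and Tuba3a resemble other genes, so reads may have been split between copies. With sex as a covariate 27, 7 and 22 germline genes were called in Dnmt1, Dnmt3a and Dnmt3b KO. Without Dnmt3b KO 11 and 12, 10 of 40 tested were called in Dnmt3b KO, a fit in which 1 unit is left in that group and is assumed to vary like the others. The calls of Rpl39l, Stk31, Gpat2 and Tuba3a stayed, whereas Tex19.1 (1.14), Fkbp6 (1.45) and Ddx4 (1.64) kept positive log2 fold changes but were not called. In Dnmt3a KO the calls of Fkbp6 and Ddx4 were lost with sex as a covariate, and that of Fkbp6, kept in 23 of 31 alternatives, also without Dnmt3a KO 2, 13 or 14 and without WT 1, 4 or 7.

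The Rhox homeobox genes and the Xlr genes are X-linked families used in germ cells and placenta, and their close copies make the counts of single members uncertain. Of 20 tested, 10, 4 and 9 rose in Dnmt1, Dnmt3a and Dnmt3b KO, none fell, and the medians were 1.24, 0.47 and 0.60. Over all genes 3.59%, 0.564% and 1.26% rose in these groups and 2.3%, 0.139% and 0.176% fell. With genes at 0 in all WT embryos set against the floor of 3 counts, the median in Dnmt3a KO was 0.04. The members that yolk sac endoderm already used were not among those that rose. Rhox5 had 1112 to 1299 CPM in WT, with 1075, 1079 and 1067 CPM in Dnmt1 KO (-0.13 ± 0.08, adjusted p = 0.29), and its log2 fold change was -0.13 in Dnmt3a KO and -0.13 in Dnmt3b KO. Xlr3a had 41.1 to 71.5 CPM in WT and 35, 42 and 38.1 CPM in Dnmt1 KO (-0.39 ± 0.14, adjusted p = 0.052). Both were outside the rule for named genes. Those that rose were low in WT. Rhox4d had 0.213 to 0.572 CPM in WT (median 0.331), 12.1, 8.94 and 12.8 CPM in Dnmt1 KO (5.08 ± 0.46, adjusted p = 1.4e-07), 1.14, 1.31, 1.79 and 3.22 CPM in Dnmt3a KO (2.47 ± 0.48, adjusted p = 0.006) and 3.84, 9.46 and 25 CPM in Dnmt3b KO (5.19 ± 0.45, adjusted p = 9.8e-07).

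Rhox1 was near 0 in WT (0 to 0.0852 CPM) and had 0.464, 2.03, 1.7 and 1.35 CPM in Dnmt3a KO (5.65 ± 1.10, adjusted p = 0.0063) and 3.0, 3.77 and 39.4 CPM in Dnmt3b KO (9.11 ± 0.90, adjusted p = 3.2e-06), with the highest value in Dnmt3b KO 12. Xlr rose from 1.44 to 6.7 CPM to 24.6, 21.7 and 25.6 CPM in Dnmt1 KO (2.80 ± 0.29, adjusted p = 9.1e-07) and to 9.74, 10.1, 12 and 13.1 CPM in Dnmt3a KO (1.67 ± 0.27, adjusted p = 0.0014). Rhox4e had 0 to 2.1 CPM in WT, 2.16, 3.63, 3.68 and 4.94 CPM in Dnmt3a KO (1.85 ± 0.37, adjusted p = 0.0068) and 5.19, 8.54 and 17.8 CPM in Dnmt3b KO (3.37 ± 0.37, adjusted p = 8.7e-06). Rhox7b had 0 to 0.0579 CPM in WT, 3.75, 2.68 and 2.62 CPM in Dnmt1 KO (6.89 ± 0.61, adjusted p = 9.3e-08) and 0.577, 1.47 and 3.8 CPM in Dnmt3b KO (6.10 ± 0.62, adjusted p = 4.4e-06). Rhox13 was at 0 in all 7 WT embryos and in all 3 Dnmt3b KO units, and had 10.7, 6.68 and 9.32 CPM in Dnmt1 KO, at least 548-fold higher than WT against a floor of 3 counts over the WT group. Without Dnmt3b KO 11 and 12, 3 of the 20 were called in Dnmt3b KO, and Rhox4e (log2 fold change 2.35) was not among them. In Dnmt3a KO the calls of Rhox1, Rhox4e and Rhox4d were kept in 19, 18 and 21 of 31 alternatives, each being lost without Dnmt3a KO 13 or without Dnmt3a KO 14, and those of Rhox4e and Xlr were lost with sex as a covariate.

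Among called genes with at least 20 CPM in the higher group, most of the 10 with the largest rises in Dnmt1 KO were close to absent in WT. Serpinb1c, a protease inhibitor of the clade B serpins at chr13:32881434-32898211, was at 0 in all 7 WT embryos and had 84.7, 65.8 and 60.6 CPM in Dnmt1 KO, at least 4338-fold higher by the same floor. Trim5 had 0 to 0.917 CPM in WT (median 0.0534) and 49.1, 40.5 and 62 CPM in Dnmt1 KO (7.68 ± 0.51, adjusted p = 1.9e-09). Pkd1l2, a member of the polycystin family, had 0.413 to 1.44 CPM in WT (median 1.12) and 138, 82.6 and 85 CPM (6.53 ± 0.56, adjusted p = 7.6e-08). The predicted genes Gm4316 and AC159200.1 rose from at most 0.381 and 0.331 CPM in WT to 28.5, 24.1 and 34.1 CPM and to 28.9, 16.4 and 23.9 CPM. Noct, which encodes a phosphatase of daily metabolic rhythms, was expressed in WT (7.71 to 17.1 CPM, median 8.83) and stood at 123, 118 and 116 CPM in Dnmt1 KO (3.62 ± 0.17, adjusted p = 1.5e-11). The rule that picked these genes required groups without overlap. The fitted log2 fold changes of genes at or near 0 in WT depend on the small prior count of the fit.

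The secretory and absorptive genes of the epithelium are described by list, against 3.59% of all genes called higher and 2.3% called lower in Dnmt1 KO. Of all 13656 genes 5240, 2140 and 2329 were at an unadjusted p under 0.05 in Dnmt1, Dnmt3a and Dnmt3b KO. Among 16 tested genes of the yolk sac endoderm list S100g alone was called in Dnmt1 KO, where it fell, and none in Dnmt3a KO or Dnmt3b KO, with 9, 3 and 4 at an unadjusted p under 0.05 and none called by DESeq2 in those 2 groups. None of 28 tested endocytosis and lysosome genes was called by edgeR or DESeq2 in any KO group, with 9, 2 and 5 at an unadjusted p under 0.05. Ctsl, a lysosomal protease, had 4269 to 5717 CPM in WT, 4502, 4226 and 4215 CPM in Dnmt1 KO (-0.15 ± 0.10, adjusted p = 0.25), 5640.0, 4813, 5450.0 and 4710.0 CPM in Dnmt3a KO and 5405, 5302 and 4959 CPM in Dnmt3b KO. Emb, a partner of monocarboxylate transporters, had 2655 to 3734 CPM in WT and 3208, 3237 and 3058 CPM in Dnmt1 KO (0.02 ± 0.09, adjusted p = 0.88). The KO values of both genes lay within or next to the WT range. None of the 11 retinoid genes tested was called in any group by edgeR or DESeq2, with 3, 4 and 4 at an unadjusted p under 0.05.

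Of 25 tested genes of lipoprotein assembly, 4 rose in Dnmt1 KO, none was called in Dnmt3a KO (5 at an unadjusted p under 0.05, 0 by DESeq2) and 1 rose in Dnmt3b KO. Apoh, which encodes a phospholipid-binding plasma protein, was near 0 in WT (0 to 0.261 CPM) and had 15.9, 13.7 and 13.1 CPM in Dnmt1 KO (6.88 ± 0.32, adjusted p = 1.2e-11). Apoc4 rose from 10.1 to 12.9 CPM to 31.6, 34.1 and 35.8 CPM (1.55 ± 0.13, adjusted p = 4.5e-08), and Fabp1, a fatty acid carrier of liver and gut, from 62.7 to 105 CPM in WT (median 79.5) to 175, 157 and 239 CPM (1.24 ± 0.21, adjusted p = 2.3e-04). The most expressed members, Apoe and Apom, were not called. Apoe had 6034 to 8185 CPM in WT (median 6809), 7135, 7248 and 9204 CPM in Dnmt1 KO (0.22 ± 0.13, adjusted p = 0.2), 7849, 7414, 6723 and 5458 CPM in Dnmt3a KO and 6861, 8376 and 7022 CPM in Dnmt3b KO. Apom had 2565 to 3312 CPM in WT (median 2681) and 2529, 2649 and 2370.0 CPM in Dnmt1 KO (-0.10 ± 0.11, adjusted p = 0.53). Lcat, an enzyme that esterifies cholesterol in plasma, rose from 5.85 to 17.9 CPM in WT to 20.4, 15.2 and 23 CPM in Dnmt1 KO (1.06 ± 0.27, adjusted p = 0.0075) and to 15.7, 17.6 and 33.8 CPM in Dnmt3b KO (1.21 ± 0.26, adjusted p = 0.0081), the latter a call kept in 12 of 30 alternatives and lost with sex as a covariate and without Dnmt3b KO 11, without Dnmt3b KO 12 or without both.

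Of 24 tested serum protein genes 3 rose in Dnmt1 KO and none was called by edgeR or DESeq2 in Dnmt3a KO or Dnmt3b KO, where 6 and 10 had an unadjusted p under 0.05. The median log2 fold change of the list was -0.04 in Dnmt1 KO, whereas its summed level lay below the WT range, at 1424, 1148 and 1450.1 CPM against 1724 to 2748 CPM. Trf, the iron carrier transferrin, picked after its values were seen, had 224 to 441 CPM in WT and 171, 137 and 158 CPM (-0.95 ± 0.17, adjusted p = 3.4e-04), below the fold required for a call. With all libraries pooled, Trf had 219 CPM in cells with markers at 2% to 3% and 445 CPM at 4% or more. Dnmt1 KO cells lay nearer to the threshold, and the part of this was not tested. Gc, the vitamin D carrier, rose from 3.21 to 5.31 CPM in WT to 18.2, 15.3 and 26.2 CPM (2.17 ± 0.20, adjusted p = 1.5e-07). Igfbp1, which binds insulin-like growth factors, rose from 5.63 to 10.7 CPM to 25.9, 14 and 20.7 CPM (1.29 ± 0.30, adjusted p = 0.004), and Ahsg, a fetal plasma glycoprotein, from 0 to 0.347 CPM to 0.857, 0.706 and 1.75 CPM (1.86 ± 0.38, adjusted p = 0.0013). The 2 most expressed, Spp2 and the fibrinogen chain gene Fgb, were not called: Spp2 had 416 to 1044 CPM in WT and 344, 242 and 335 CPM in Dnmt1 KO (-0.92 ± 0.25, adjusted p = 0.01), and Fgb 367 to 446 CPM and 303, 279.5 and 326 CPM (-0.38 ± 0.09, adjusted p = 0.0057). The call of Ahsg was lost with sex as a covariate or without Dnmt1 KO 1, and that of Igfbp1 without Dnmt1 KO 1 or without Dnmt1 KO 3.

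Of 27 tested transporters and metal-binding genes 2 rose and 2 fell in Dnmt1 KO. Slc16a1, a transporter of lactate and other monocarboxylates, fell from 602 to 899 CPM in WT (median 759.9) to 218, 235 and 269.7 CPM (-1.56 ± 0.13, adjusted p = 4.3e-08). S100g, which ferries calcium, fell from 1797 to 4704 CPM in WT (median 2672) to 1235, 977 and 1355 CPM (-1.23 ± 0.25, adjusted p = 0.0015). With all libraries pooled, S100g had 1772 CPM in cells with markers at 2% to 3% and 4272 CPM at 4% or more. The chosen cells of Dnmt1 KO lay nearer to the threshold than those of WT. The part of this in the fall of S100g was not tested. The metallothioneins, which bind zinc and copper, rose: Mt1 had 1418 to 2468 CPM in WT (median 1894) and 3984, 3773 and 4901 CPM (1.19 ± 0.22, adjusted p = 6.3e-04) and Mt2 260.1 to 518 CPM in WT (median 359) and 822, 778 and 1076 CPM (1.36 ± 0.27, adjusted p = 0.0012). In none of these 4 genes did the groups overlap, as in most called genes. The calls of Mt1 and Mt2 were lost with sex as a covariate, and that of S100g without Dnmt1 KO 1 or without Dnmt1 KO 2.

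Among 19 tested endoderm transcription factors 2 related genes, Sox17 and Sox7, passed the fold by a narrow margin in Dnmt1 KO. Sox17 had 18.9 to 45 CPM in WT (median 28) and 57.8, 67.4 and 47.2 CPM (1.01 ± 0.21, adjusted p = 0.0019), and Sox7 2.48 to 4.2 CPM and 6.16, 7.15 and 6.99 CPM (1.01 ± 0.18, adjusted p = 4.8e-04). DESeq2 did not call either, nor did the fit with sex as a covariate. The most expressed factors, Cited1 and Maf, were not called, with 1117 to 1264 CPM of Cited1 in WT and 1207, 1266 and 1057 CPM in Dnmt1 KO (0.02 ± 0.10, adjusted p = 0.9), and 82.8 to 151 CPM of Maf and 119, 113 and 162 CPM (0.23 ± 0.17, adjusted p = 0.33). Of 18 signalling genes Igf2, Igf2r and the growth factor gene Pdgfa (-1.05 ± 0.26, adjusted p = 0.0061) fell in Dnmt1 KO, and the WNT inhibitor Dkk1 (5.25 to 9.49 CPM in WT, 15.1, 12.8 and 10.5 CPM, 1.01 ± 0.20, adjusted p = 0.0011) and the NODAL and WNT antagonist Cer1 (0 to 0.312 CPM, 0.857, 1.18 and 1.75 CPM, 3.45 ± 0.56, adjusted p = 1.8e-04) rose, the latter at levels near or below 1 CPM. The call of Dkk1 was kept in 21 of 31 alternatives and lost with DESeq2, and that of Cer1 was lost with sex as a covariate. Lefty1, another NODAL antagonist, was called lower in Dnmt3b KO, from 0.11 to 1.44 CPM to 0.0577, 0.196 and 0.117 CPM (-2.97 ± 0.53, adjusted p = 0.0018), and that call was lost with sex as a covariate, without Dnmt3b KO 1+2, without Dnmt3b KO 12 and without Dnmt3b KO 11 and 12. Of 21 keratins and junction genes, the simple-epithelium keratins Krt7 (from 15.4 to 62.3 CPM to 7.68, 5.74 and 6.7 CPM, -2.0 ± 0.44, adjusted p = 0.0028) and Krt19 (from 8.15 to 28.4 CPM to 2.98, 6.5 and 2.04 CPM, -1.83 ± 0.39, adjusted p = 0.0019) fell in Dnmt1 KO, calls that did not hold with sex as a covariate. With all libraries pooled, Krt19 had 6.95 CPM in cells with the rule's markers at 2% to 3% and 21 CPM at 4% or more. The part of this in its fall was not tested. The call of Krt7 was also lost without any 1 of the 3 Dnmt1 KO embryos and that of Krt19 without Dnmt1 KO 1. Beside these, the fatty acid carrier Fabp5 fell from 26 to 52 CPM to 11.5, 9.74 and 10.5 CPM (-1.79 ± 0.17, adjusted p = 2.5e-07) and Rspry1 from 21.5 to 30.7 CPM to 6.0, 5.7 and 5.24 CPM (-2.14 ± 0.15, adjusted p = 6.8e-09).

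Beyond the germline and Rhox genes, few of the genes called in Dnmt3a KO were well expressed. Apobec2, a member of the cytidine deaminase family, rose from 6.81 to 11.4 CPM in WT (median 8.82) to 27.2, 20.8, 29.6 and 23.5 CPM in Dnmt3a KO 1, 2, 13 and 14 (1.44 ± 0.14, adjusted p = 9.5e-06). Gimap1, a GTPase gene best known from lymphocytes, rose from 3.89 to 10.6 CPM in WT (median 5.31) to 20.9, 16.8, 26.7 and 21.7 CPM (1.76 ± 0.22, adjusted p = 1.3e-04). Pgc, which encodes a precursor of a gastric protease, rose from 10.8 to 22.1 CPM in WT (median 13.6) to 30.6, 41.9, 44.9 and 34.5 CPM (1.34 ± 0.27, adjusted p = 0.0077), and the methyltransferase-like gene Mettl25 from 10.5 to 24.3 CPM in WT (median 13.1) to 30.1, 29.96, 63.5 and 43.3 CPM (1.31 ± 0.25, adjusted p = 0.0056). These 4 genes were also picked for groups without overlap. The calls of Pgc and Mettl25 were kept in 15 and 22 of 31 alternatives and were lost with sex as a covariate and without Dnmt3a KO 13 or 14. Of 29 gene lists 26 had no call in Dnmt3a KO by edgeR. Of their 412 tested members, 77 were at an unadjusted p under 0.05, against 2140 of all 13656 genes, and 2 were called by DESeq2.

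In Dnmt3b KO the well expressed genes outside the germline list included Pgc, with 30.6, 43.1 and 124 CPM in Dnmt3b KO 1+2, 11 and 12 (2.10 ± 0.28, adjusted p = 1.0e-04). Mcoln3, a cation channel of endosomes and lysosomes, rose from 5.38 to 13.9 CPM in WT (median 6.81) to 27, 28.8 and 18.9 CPM (1.62 ± 0.21, adjusted p = 4.9e-05), and kept its call without Dnmt3b KO 11 and 12. Dppa5a, a gene of pluripotent cells, had 5.41 to 13.8 CPM in WT (median 6.79) and 24.6, 27.3 and 20.2 CPM (1.69 ± 0.24, adjusted p = 2.2e-04). Rab25, an epithelial trafficking GTPase, had 10.8 to 21.4 CPM in WT (median 15) and 32.4, 46.4 and 44.6 CPM (1.42 ± 0.21, adjusted p = 2.5e-04). Susd3 rose from 8.88 to 11.9 CPM to 18.1, 24.4 and 28.8 CPM (1.19 ± 0.20, adjusted p = 0.0013), and the phosphatase inhibitor Ppp1r14d from 9.9 to 22.6 CPM to 26.9, 43.9 and 58.4 CPM (1.38 ± 0.28, adjusted p = 0.005). These 6 genes were picked for groups without overlap as well. Where Dnmt3b KO 1+2 alone stood for the group, with its spread taken from the other groups, Pgc (0.98), Dppa5a (1.69), Rab25 (1.04), Susd3 (0.77) and Ppp1r14d (0.68) kept positive log2 fold changes but were not called. Of the 29 lists 24 had no call in Dnmt3b KO, with 85 of 379 members at an unadjusted p under 0.05, against 2329 of all genes, and 2 called by DESeq2.

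Transcripts of other cell types and signs of RNA quality moved with some of these groups. The median mitochondrial share of UMIs was 5.58% to 6.25% per Dnmt1 KO library and 1.79% to 4.95% per WT library. Among Dnmt3a KO libraries it ran from 1.16% (Dnmt3a KO 2) to 7.2% (Dnmt3a KO 14), and among Dnmt3b KO libraries from 3.78% to 4.31%. The housekeeping list summed to 13501 to 15534 CPM in Dnmt1 KO, below its WT range of 15689.9 to 17782 CPM. The part of both in the Dnmt1 KO differences was not tested. In Dnmt1 KO the summed lists were lower than in WT for extraembryonic mesoderm (19.9 to 21.3 CPM against 33.4 to 47.5), neural (41.1 to 68.9 against 81.5 to 122), trophoblast (64.4 to 73.1 against 81.5 to 127) and the rule's globins (11.9 to 18.1 against 31.4 to 1550.5), and higher for parietal endoderm (856 to 944 against 739 to 845). Calls in these lists were Twist1 and Foxf1 of 8 mesoderm genes, Pax6 of 7 neural genes, Sox2 and Krt19 of 9 gut endoderm genes, Fst and Snai1 of 10 parietal endoderm genes and Esx1 of 7 trophoblast genes, all lower. The parietal endoderm genes Col4a1 (0.40 ± 0.12, adjusted p = 0.015), Col4a2 (0.45 ± 0.09, adjusted p = 0.0013) and Lama1 (0.52 ± 0.13, adjusted p = 0.0051), picked after their values were seen, had higher means in Dnmt1 KO and did not reach the fold required for a call. The calls of Pax6, Foxf1 and Esx1 were lost with sex as a covariate and without any 1 of the 3 Dnmt1 KO embryos, and those of Sox2 and Fst without Dnmt1 KO 1 or without Dnmt1 KO 2. Twist1 had 14.6 to 22.9 CPM in WT and 6.47, 8.8 and 6.99 CPM in Dnmt1 KO (-1.32 ± 0.21, adjusted p = 1.7e-04). In the other WT cells it had a mean of 104 CPM. Esx1 had 33.4 to 74.6 CPM and 23, 17 and 23 CPM (-1.09 ± 0.27, adjusted p = 0.0068), with 1.49 CPM in the other WT cells. With all libraries pooled, Esx1 had 32.1 CPM in cells with the rule's markers at 2% to 3% and 62.3 CPM at 4% or more. The part of this in its fall was not tested. Pax6, Sox2, Foxf1 and Fst were at most 4.17 CPM in any WT embryo. The part of such transcripts in the Dnmt1 KO differences was not tested. Slc7a3 alone of 4 tested primed pluripotency genes rose in Dnmt1 KO, from 0.11 to 0.633 CPM to 1.08, 0.471 and 4.08 CPM (2.11 ± 0.53, adjusted p = 0.007). The study named that list from these samples, so it is not independent evidence, and the call was lost in 12 of 30 alternatives.

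No endothelial, erythroid or extraembryonic mesoderm gene was called in Dnmt3a KO by edgeR, and DESeq2 called 1 mesoderm gene. Over all genes 0.564% were called higher and 0.139% lower in Dnmt3a KO, so a count of 0 is near the background. The log2 fold change was positive there for 8 of 8 endothelial genes (median 0.92, 2 at an unadjusted p under 0.05), 9 of 9 erythroid genes (0.78, 0 at such a p) and 6 of 8 mesoderm genes (0.83, 4 at such a p). In Dnmt3b KO it was positive for 7 of 8 endothelial genes (0.75, 2 at such a p), of which edgeR called 0 and DESeq2 1. In Dnmt1 KO it was positive for 0 of 9 erythroid genes (-3.15, 5 at such a p), of which edgeR called 0 and DESeq2 2. Of all 13656 genes 7012, 6868 and 6713 were positive in Dnmt3a, Dnmt3b and Dnmt1 KO, and 2140, 2329 and 5240 were at such a p. Barcodes with globins under 5% numbered 1606 of 1628, 3595 of 3615 and 3592 of 3635 in Dnmt1 KO 1, 2 and 3. In WT they ran from 7724 of 9541 (WT 1) to 4204 of 4353 (WT 4). The part of this in the lower erythroid counts was not tested. The erythroid list summed to 1.65 to 22.8 CPM in WT and to 8.51 to 155.5 CPM in Dnmt3b KO. The adult-type globin genes Hbb-bs and Hbb-bt were called higher in Dnmt3b KO through 1 unit. Hbb-bs had 127, 3.73 and 5.21 CPM in Dnmt3b KO 1+2, 11 and 12 against 0.206 to 7.14 CPM in WT (4.03 ± 0.80, adjusted p = 0.0048), and Hbb-bt 24.5, 0.0982 and 0.351 CPM against 0 to 1.44 CPM (4.49 ± 0.93, adjusted p = 0.0069). Without Dnmt3b KO 1+2 neither was called, and the log2 fold change of Hbb-bt was -0.87. The Y-linked gene Uty was called in Dnmt1 KO (0 to 5.96 CPM in WT, 9.01, 8.61 and 8.74 CPM), in which every embryo is male. The genes of the ribosomal stress and heat shock list summed to 11172 to 12031 CPM in Dnmt1 KO and to 8898.5 to 10788.5 CPM in WT, with a median log2 fold change of -0.67 over its 14 members. None of the 14 was called by edgeR and 1 was called by DESeq2. An unadjusted p under 0.05 was found for 8, against 5240 of all 13656 genes.

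Whether a gene changed otherwise in yolk sac endoderm than in the rest of the embryo was tested with an interaction term, over 16602 genes, between the yolk sac endoderm cells and the other non-erythroid cells of the same embryos. In Dnmt1 KO the change was higher in yolk sac endoderm for 286 genes (1.72%) and lower for 1228 (7.4%). It was higher for 0 genes (0.0%) and lower for 10 (0.0602%) in Dnmt3a KO, and higher for 10 (0.0602%) and lower for 61 (0.367%) in Dnmt3b KO. At an unadjusted p under 0.05, 1309 genes were higher and 1140 lower in Dnmt3a KO. Other cells of Dnmt1 KO embryos carried more yolk sac endoderm transcripts than those of WT embryos, with 922 to 2105 CPM of the yolk sac endoderm list against 284 to 592, and all 16 tested genes of that list were lower in the difference. Where other cells were limited to those with the rule's markers under 0.5% of UMIs, an alternative chosen after the data were seen, 314 genes were higher and 763 lower in Dnmt1 KO, and 1 of the 16 was lower. Of the 1514 genes called in Dnmt1 KO, 928 were called under both definitions. Without Dnmt1 KO 2 the calls in Dnmt1 KO numbered 742. With sex as a covariate the calls numbered 572, 0 and 36 in Dnmt1, Dnmt3a and Dnmt3b KO. The 10 calls in Dnmt3a KO ranged from 0 to 23 when 1 unit was left out, with 0 without Dnmt3a KO 13 or without WT 3, 4 or 6, and 23 without WT 1. The 71 calls in Dnmt3b KO fell to 28 without Dnmt3b KO 12, 31 without Dnmt3b KO 11, 42 without WT 3 and 44 without WT 4.

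On the log2 scale, and from a higher WT level, the germline list rose less in yolk sac endoderm than elsewhere in Dnmt1 KO and Dnmt3b KO. Its summed level in the other cells was 32.5 ± 7.44 CPM in WT (n = 7), below the 93.5 ± 21.4 CPM of yolk sac endoderm. In Dnmt1 KO it was 585 ± 38.8 CPM in other cells and 486 ± 11.4 CPM in yolk sac endoderm (n = 3). In Dnmt3a KO it was 80.5 ± 19.2 CPM in other cells and 239 ± 48.8 CPM in yolk sac endoderm (n = 4). In Dnmt3b KO the other cells had 425 ± 386 CPM, with 164, 243 and 868 CPM in Dnmt3b KO 1+2, 11 and 12. Yolk sac endoderm had 402 ± 152 CPM (n = 3), with 286, 346 and 574 CPM. Its level was thus above that of other cells in Dnmt3b KO 1+2 and 11, and below it in Dnmt3b KO 12. Of 41 germline genes tested for the difference, 22 were lower and 1 higher in yolk sac endoderm in Dnmt1 KO (median -1.80), Stk31 and Slc25a31 lower in Dnmt3a KO (median -0.62) and 15 lower in Dnmt3b KO (median -2.08). With other cells limited to those under 0.5%, 21, 2 and 15 were lower. With all other non-erythroid cells, 14, 1 and 7 of 21 Rhox and Xlr genes were lower, against 7.4%, 0.0602% and 0.367% of all genes. In Dnmt1 KO these included Rhox5, with 1203 CPM in WT yolk sac endoderm and 36.7 CPM in other WT cells. Other cells of Dnmt1 KO embryos carried more yolk sac endoderm transcripts than those of WT, and the part of this was not tested. Of 18 p53 targets, Phlda3, Eda2r, Fas and Plk2 rose more in yolk sac endoderm than in other cells in Dnmt1 KO, and the change of Perp, which was not called in yolk sac endoderm (-0.45), was lower there than in other cells. Without Dnmt3b KO 11 and 12, 2 genes in all were called for the difference in Dnmt3b KO.

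**Figure D5:**
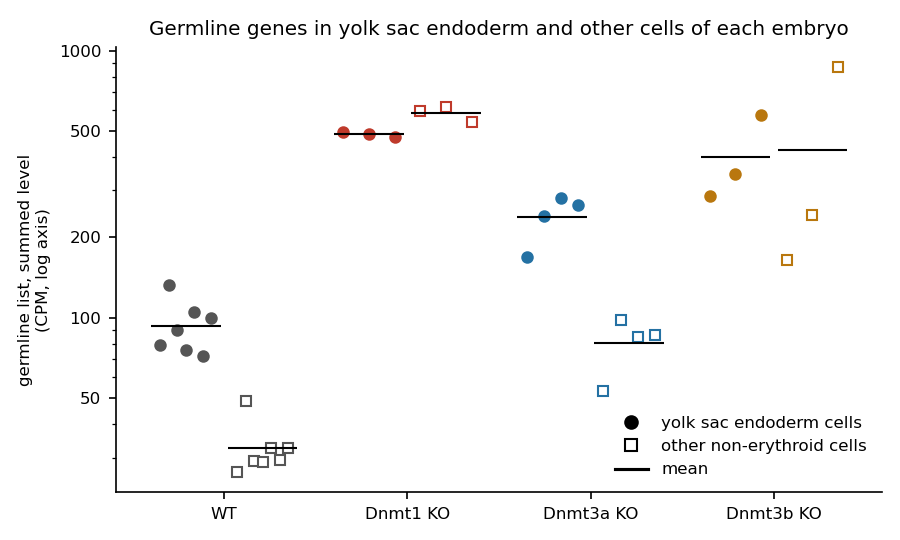
Each point is the summed CPM of the germline list in 1 unit (log axis), for yolk sac endoderm cells (filled circles) and for the other non-erythroid cells (open squares), by genotype, with bars at the means. In WT the list stands at 72.0 to 133 CPM in yolk sac endoderm and has a mean of 32.5 CPM in other cells, and in Dnmt1 KO the means are 486 and 585 CPM.

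The other cells of Dnmt1 KO embryos also differed from those of WT in their marker lists, with 216 to 628 CPM of the trophoblast list against 171 to 226 in WT, 96.7 to 158 CPM of the neural list against 300.4 to 466.2 and 144 to 285 CPM of the extraembryonic mesoderm list against 333 to 411. The part of these shifts in the differences from other cells was not tested. The genes with the largest differences in Dnmt1 KO included Utf1, a chromatin factor of pluripotent cells. In other cells Utf1 had 2.23 ± 2.23 CPM in WT and 44 ± 35.6 CPM in Dnmt1 KO, against 3.49 ± 1.7 and 1.71 ± 0.709 CPM in yolk sac endoderm (difference of log2 fold changes -5.75 ± 0.51, adjusted p = 1.1e-06). Rhox6 had 3.92 ± 5.26 and 96 ± 72.3 CPM in other cells, whereas in yolk sac endoderm, which uses it in WT, it had 57.4 ± 6.66 CPM in WT and 33 ± 6.23 CPM in Dnmt1 KO (-6.09 ± 0.75, adjusted p = 1.7e-05). Fabp3, a fatty acid carrier of muscle and heart, had 15.7 ± 11.2 and 256 ± 218 CPM in other cells and 19.6 ± 7.5 and 9.18 ± 4.26 CPM in yolk sac endoderm (-5.42 ± 0.62, adjusted p = 9.1e-06). Tex13b differed by -5.98 ± 1.47, adjusted p = 0.0049 and AC158554.1 by -5.32 ± 0.71, adjusted p = 3.3e-05. On the other side stood genes whose level in other cells was lower in Dnmt1 KO than in WT. Hoxa7, a homeobox gene of trunk tissues, had 30.01 ± 4.98 and 4.73 ± 1.84 CPM there and was low in yolk sac endoderm (1.32 ± 0.532 and 1.2 ± 0.0301 CPM, 2.29 ± 0.42, adjusted p = 4.6e-04). Myl3, a myosin light chain of heart, had 63.5 ± 27.6 and 7.94 ± 1.64 CPM there (2.37 ± 0.50, adjusted p = 0.0014). Ptprs, a receptor phosphatase, rose in yolk sac endoderm from 3.33 ± 0.941 to 15.1 ± 0.965 CPM while other cells had 33.9 ± 3.56 and 29 ± 1.97 CPM (2.27 ± 0.33, adjusted p = 6.0e-05). The WNT pathway inhibitor Nkd1 (2.53 ± 0.33, adjusted p = 2.9e-05) and the glutathione transferase gene Mgst1 (2.37 ± 0.27, adjusted p = 9.4e-06) followed.

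In Dnmt3a KO the difference was called for Xlr3b (-1.60 ± 0.24, adjusted p = 0.0062), with 22.9 ± 3.67 and 23.5 ± 2.6 CPM in yolk sac endoderm and 4.79 ± 2.16 and 14.7 ± 4.1 CPM in other cells, WT first in each case. Krt19 differed by -1.37 ± 0.22, adjusted p = 0.0094, with 15.5 ± 6.51 and 6.37 ± 2.12 CPM in yolk sac endoderm. Neither call was kept with sex as a covariate or with the counts thinned to the smallest total, which each left 0 calls in Dnmt3a KO. In Dnmt3b KO, Mcoln3 rose in yolk sac endoderm from 8.1 ± 2.9 to 24.9 ± 5.24 CPM, with 2.89 ± 0.413 and 2.41 ± 1.15 CPM in other cells (2.02 ± 0.30, adjusted p = 0.0012). C1qtnf12, a secreted protein related to complement, rose in yolk sac endoderm from 7.54 ± 1.63 to 19.98 ± 1.9 CPM and had 18.8 ± 2.35 and 21.2 ± 0.958 CPM in other cells (1.25 ± 0.17, adjusted p = 4.5e-04). Dazl, an RNA-binding protein gene of germ cells, went the other way, with 0.11 ± 0.0441 and 74.7 ± 113 CPM in other cells and 0.477 ± 0.259 and 6.13 ± 8.63 CPM in yolk sac endoderm (-5.24 ± 0.59, adjusted p = 8.8e-05). In both cell classes the SD of Dazl in Dnmt3b KO exceeded its mean, so these means do not stand for every unit. Slc25a31 differed by -4.12 ± 0.37, adjusted p = 1.1e-05, Tex19.1 by -3.18 ± 0.59, adjusted p = 0.0088, Xlr4b by -3.10 ± 0.39, adjusted p = 2.7e-04 and Xlr3a by -3.01 ± 0.38, adjusted p = 2.7e-04. Xlr3a and Xlr4b were expressed in WT yolk sac endoderm (51.6 ± 10.9 and 44 ± 4.53 CPM) and near silent in other WT cells (2.74 ± 1.31 and 1.71 ± 0.874 CPM).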

How the data were processed

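The authors deposited raw UMI counts per gene and cell barcode, with no normalisation, for 18 libraries; per the file headers these counts were made with Cell Ranger 3.1.0 in 17 libraries and Cell Ranger 5.0.0 in Dnmt3b KO 12, and the study's methods name the build mm10. The 31053 mouse genes were used. Barcodes with at least 1500 UMIs were kept, no doublets were removed in the main analysis, and groups followed the labels. Counts of the yolk sac endoderm cells were summed per embryo. KO groups were compared with WT in 1 edgeR 4.0.16 quasi-likelihood fit (R 4.3.3) over the 4 groups, after filterByExpr and TMM scaling, without the 10 transcripts of the rule. The difference from other cells was fitted with the embryo as a block. CPM are counts scaled to 1000000 UMIs of the same cells. The sum of counts per unit, from 3433519 UMIs upwards, sets the precision for low genes.

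The members and gene lists were chosen with earlier results of these data known. Named genes were, by a fixed rule, the targeted genes, the called methylation machinery genes, the 10 highest and 10 lowest called genes with no overlap and at least 20 CPM in the higher group, up to 4 called genes per list, the 2 most expressed genes of 5 lists, and the 5 highest and 5 lowest differences from other cells. Other genes named were picked after their values were seen. Some items are not reported here. In the edgeR fits a p-value sets a difference against the spread between embryos within groups, estimated over the 4 groups together. For the difference from other cells, that is the spread in the contrast of the 2 cell classes of an embryo. The p-values of the shares come from permuting embryos between groups. Intervals and floors (3 counts) cover counting error only. Shares were tested in Python 3.11.15 (scipy 1.17.1). Promoters came from RefSeq. Scripts were tested on simulated data with known changes. Alternatives were DESeq2 1.42.0, filters on genes and cells (Scrublet in scanpy 1.11.5, at most 30% mitochondrial and 35% ribosomal counts), sex, reference, depth, other thresholds, a replicate block and each unit left out.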

Additional observations from a re-analysis of the deposited data

Results flagged for a closer look

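The change in yolk sac endoderm differed from the change in the other non-erythroid cells, by the interaction term of the edgeR fit, for 19 genes chosen by size. In Dnmt1 KO the difference on the log2 scale was 2.53 for Nkd1, 2.37 for Myl3, 2.37 for Mgst1, 2.29 for Hoxa7 and 2.27 for Ptprs. It was -6.09 for Rhox6, -5.98 for Tex13b, -5.75 for Utf1, -5.42 for Fabp3 and -5.32 for AC158554.1. In Dnmt3a KO it was -1.60 for Xlr3b and -1.37 for Krt19. In Dnmt3b KO it was 2.02 for Mcoln3 and 1.25 for C1qtnf12, and -5.24 for Dazl, -4.12 for Slc25a31, -3.18 for Tex19.1, -3.10 for Xlr4b and -3.01 for Xlr3a.

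Among 180 groups of 4 to 7 units tested for the 88 named genes, 24 held 1 unit far from the rest by Dixon's criterion, which flags about 1 group in 20 by chance. WT 1 stood high for Slc22a18 (37.3 CPM), Krt7 (62.3 CPM), Esx1 (74.6 CPM), Spp2 (1044 CPM) and Apom (3312 CPM). WT 2, the male WT embryo and the one with the lowest UMIs per cell, stood high for Phlda3 (7.51 CPM), Rpl39l (18.8 CPM), Cyct (2.87 CPM), Uty (5.96 CPM), Lcat (17.9 CPM) and Dppa5a (13.8 CPM). WT 3 stood high for Slc7a3 (0.633 CPM) and Trim5 (0.917 CPM), and WT 7 for Rhox1 (0.0852 CPM). Dnmt3a KO 2 stood high for Igf2 (9.92 CPM), Apoc4 (16.8 CPM), Gc (8.52 CPM), Eda2r (0.436 CPM) and Rhox13 (0.0484 CPM). Dnmt3a KO 14 stood apart for Cer1 (0.0574 CPM), Trim5 (0.230 CPM) and Ppp1r14d (53.6 CPM), and Dnmt3a KO 13 for Gm4316 (3.91 CPM) and Serpinb1c (0.0921 CPM).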

How the results depend on the processing

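The difference in share of yolk sac endoderm cells (log2) became 0.30 in Dnmt1 KO and 0.17 in Dnmt3a KO with the markers at 1%, and 0.00055 in Dnmt3a KO at 4000 UMIs. Leaving out 1 unit at a time gave -1.05 to 0.42 in Dnmt1 KO (0.42 without Dnmt1 KO 3), -0.29 to 0.052 in Dnmt3a KO (0.052 without Dnmt3a KO 13) and -0.50 to -0.23 in Dnmt3b KO.

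Called genes in Dnmt1, Dnmt3a and Dnmt3b KO numbered 804, 96 and 196. With sex as a covariate Dnmt1 KO had 489 and Dnmt3a KO 59, of which 396 and 37 were among the main calls. With the counts thinned to the smallest total, they numbered 348, 32 and 66. Dnmt3b KO had 40 without Dnmt3b KO 11 and 12. Leaving out 1 unit gave 456 to 853, 55 to 121 and 103 to 228. Same-numbered embryos had deviations that correlated at 0.0961, 0.0220 and 0.0323 (WT with Dnmt1 KO) and 0.0568 and 0.342 (WT with Dnmt3a KO). The highest was that of WT 2 with Dnmt3a KO 2, which also had the lowest median UMIs per cell (3379.5 and 4974). No reference was computed for these correlations, so they do not settle whether the numbers mark shared batches. With the replicate block Dnmt3a KO had 8 calls, 7 of them among the main 96. Dnmt1 KO had 794, of which 558 were among the main 804. For Dnmt3b KO no paired analysis was possible because it shares fewer than 2 numbers with WT.

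For the difference from other cells, sex as a covariate gave 572, 0 and 36 calls in Dnmt1, Dnmt3a and Dnmt3b KO and thinning 673, 0 and 18. In Dnmt3a KO the calls numbered 18 without a filter on low counts, 6 with the reference as a covariate, 19 with Dnmt3b KO 1 and 2 separate, 18 with Dnmt3b KO 1 only and 18 with other cells under 0.5% markers, an alternative chosen after seeing the data. Dnmt3b KO had 2 without Dnmt3b KO 11 and 12. Leaving out 1 unit gave 742 to 1616, 0 to 23 and 28 to 101. The cause of these changes was not tested. Markers at 5% left too few cells for a fit.

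Log2 fold changes that changed sign were, but for Hbb-bt, of genes not called. In Dnmt1 KO these were Cited1 (-0.0012 with no filter), Emb (-0.019 with sex, -0.0032 with markers at 1%) and Dnmt3a (-0.53 with sex). In Dnmt3a KO, sex as a covariate gave Spp2 0.12, Meg3 0.12 and Apom 0.0037, the replicate block Maf 0.16, Emb 0.034, Apoe 0.13 and Cited1 -0.029, and the reference Emb 0.028 and Ctsl -0.020. In Dnmt3b KO, leaving out Dnmt3b KO 11 and 12 gave Dnmt3a 0.058, Maf 0.11, Emb 0.067, H19 0.025 and Apoe -0.070. Emb was 0.017 with the reference, 0.0028 thinned and 0.0024 with Dnmt3b KO 1 and 2 separate. H19 was 0.020 with sex, 0.022 with the reference, 0.0065 thinned, 0.0052 with both libraries separate and 0.029 with Dnmt3b KO 1 only, where Maf was 0.018. Leaving out 1 unit gave, in Dnmt1 KO, Cited1 -0.041 to 0.088, Dnmt3b -0.030 to 0.19 and Emb -0.0096 to 0.065. In Dnmt3a KO it gave Apoe -0.094 to 0.090, Apom -0.17 to 0.018, Cited1 -0.027 to 0.10, Ctsl -0.0064 to 0.12 and Emb -0.070 to 0.0047. In Dnmt3b KO it gave Apoe -0.057 to 0.13, Emb -0.060 to 0.040, H19 -0.047 to 0.041, Maf -0.22 to 0.11 and Hbb-bt -0.87 to 5.06, the first without Dnmt3b KO 1+2.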

Other observations

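Xist, the noncoding RNA that coats the inactive X chromosome of female cells, was picked outside the rule for named genes, after its values were seen. In WT yolk sac endoderm it had 491.5 to 594 CPM in the 6 female embryos and 0.221 CPM in the male WT 2. The 3 Dnmt1 KO embryos, all male by their Y-linked transcripts, had 15.2, 10.7 and 10.2 CPM. The 4 male Dnmt3a KO embryos had 0.124, 0.145, 0.599 and 0.402 CPM. The male Dnmt3b KO 1+2 and 11 had 0.231 and 0.360 CPM, and the female Dnmt3b KO 12 had 713 CPM. Each Dnmt1 KO value was above every other male embryo and below every female embryo. The difference among males was not tested.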
